A study of Mus musculus with 12 samples.

Results

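The proteasome genes examined here are the 50 protein-coding mouse genes whose symbols begin with Psma, Psmb, Psmc, Psmd, Psme, Psmf or Psmg and whose mean reached 10 normalized counts in both tissues, out of 55487 annotated gene rows, of which 21282 reached that level in both. All 50 protein-coding genes with these prefixes passed, and 4 further genes with the prefixes are not annotated as protein-coding and were left out. Psma8, at 10.1 normalized counts in cortex and 10.6 in hippocampus, and Psmb11, at 18.1 and 15.8, lay just inside the threshold, and none lay outside it. Psmc3ip carries the prefix by name only, as it encodes a partner of a proteasome ATPase with a role in meiotic recombination.

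RNA was sequenced from 4 groups of 3 libraries: hippocampus of mTert KO (G1) mice, hippocampus of mTert WT mice, cerebral cortex of mTert KO (G1) mice and cerebral cortex of mTert WT mice, all of strain C57BL/6. The deposited data name the KO mice "G1 Homo", read here as homozygous. The targeted gene, Tert, encodes the catalytic subunit of telomerase, and the study asked which brain transcripts differ without it. How the allele was made, what distinguishes G1 mice, their age, and whether each library stands for its own animal, are points on which the labels are silent. The p-values therefore measure library-to-library spread only, and that spread may be technical. In sums of cell type markers, library 3 often lay between libraries 1 and 2, and in WT hippocampus it did so in every marker list. Libraries 1 to 3 of WT hippocampus had 347481, 12454 and 180156 normalized counts of choroid plexus markers. In KO cortex striatal markers summed to 29727, 47456 and 38026, and choroid plexus markers to 2562, 11312 and 6995. WT cortex choroid plexus sums, 1584, 1744 and 1451, did not show this order. Whether library 3 is independent of libraries 1 and 2 was not tested, and if not, the p-values are too small. The SDs and the counts of groups without overlap would then also rest on fewer than 3 independent libraries per group.

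The proteasome is the barrel-shaped protease that degrades proteins tagged with ubiquitin. Its 20S core consists of outer rings of alpha subunits, which gate the entrance, and inner rings of beta subunits, some of which cut the protein. The 19S cap recognizes ubiquitin, removes it in its lid and unfolds the protein with the ATPases of its base. Interferon can replace the catalytic beta subunits by inducible ones, giving the immunoproteasome, and other activators such as PA28 and PA200 can take the place of the cap. When proteasomes are inhibited in mammalian cells, the transcription factor Nfe2l1 raises the transcription of most subunit genes together. Neurons use proteasomes for the turnover of synaptic proteins.

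Library depth lay between 68424934 and 86639113 reads recovered from the deposited values, taking 1 step of the values as 1 read. Tert, measured first as a check of the labels, had 0, 6.31 and 0 normalized counts in KO hippocampus, against 147, 184 and 128 in WT hippocampus. In KO cortex it had 0 in each of the 3 libraries, against 206, 105 and 241 in WT cortex. Markers of excitatory neurons and of hippocampal fields were detected in all libraries. WT hippocampus libraries 1 and 3 stood apart by choroid plexus markers, and WT cortex library 2 stood apart in the proteasome genes themselves, as given below beside the results.

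In hippocampus the genes of the proteasome particle were higher in KO. Of the 50 genes 34 rose, 1 fell (Psme4) and 15 were not called by limma at a Benjamini-Hochberg adjusted p below 0.05, where 14.1% of the 22337 genes tested rose and 15.1% fell. The rises were small, between 0.13 and 0.30 on the log2(normalized count + 1) scale, and the median over the 50 genes was 0.18, beside 0.015 over all genes tested. Summed over the 50 genes, the normalized counts were 209922, 217193 and 211667 in the KO libraries, against 184036, 189225 and 185988 in the WT libraries. The 3 KO sums lay above the 3 WT sums, with a ratio of the means of 1.14. In 35 of the genes every KO library lay above every WT library, as in 24.3% of all genes tested. In 2 genes, Psme4 and Psmg4, every KO library lay below every WT library, as in 21.5% of all genes tested.

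**Figure D1:**
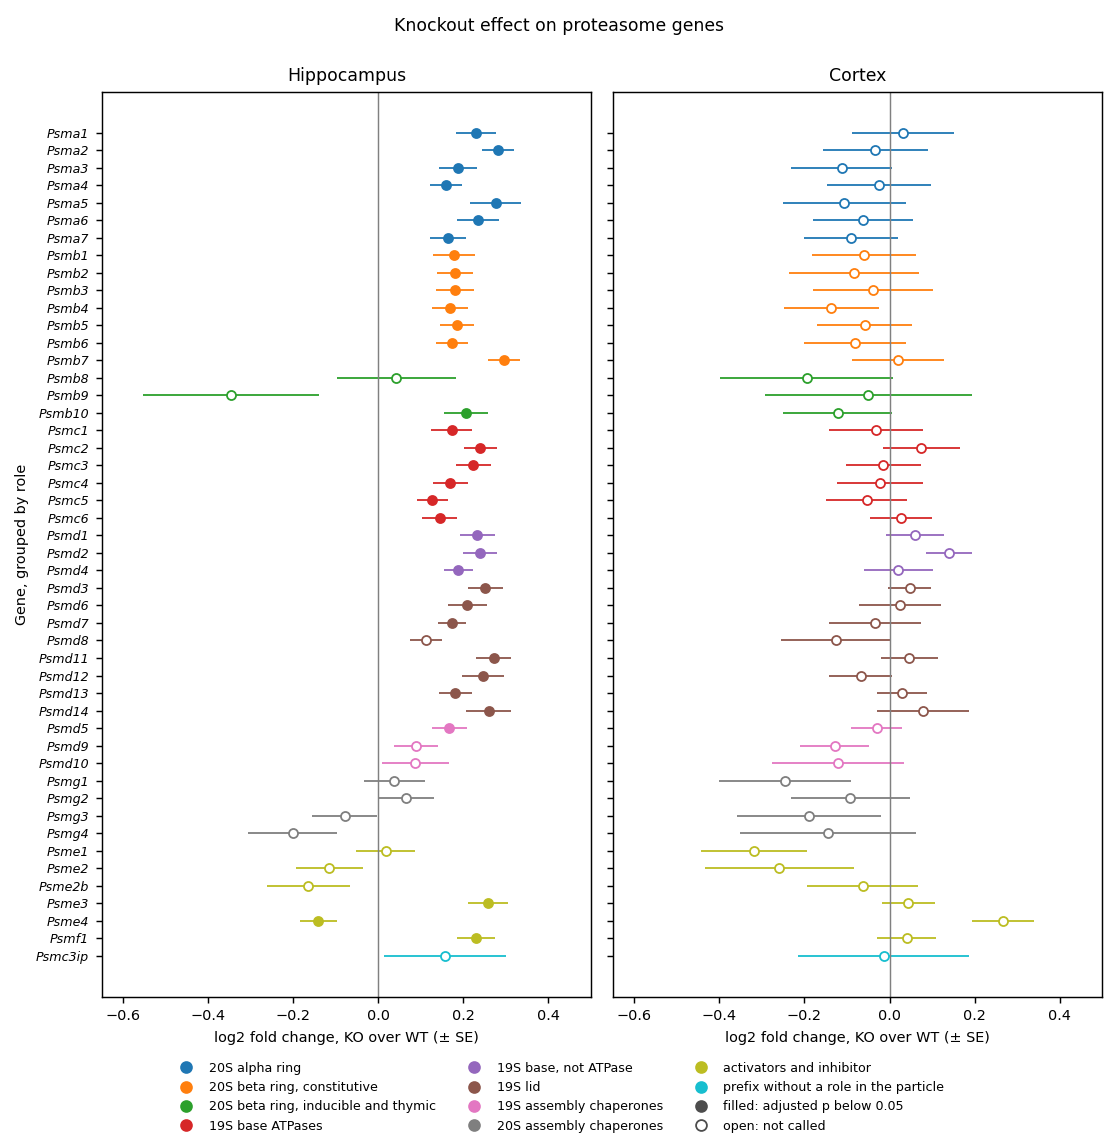
Log2 fold change of KO over WT with its standard error for 48 proteasome genes, coloured by role, in hippocampus (left) and cortex (right). Psma8 and Psmb11, which have means below 50 normalized counts, are not drawn. In hippocampus the points of the rings, ATPases and lid are nearly all filled (called) and lie between 0.13 and 0.30, and in cortex no point is filled.

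The constitutive particle accounted for most of the rises. Of the 32 genes of the constitutive 20S rings and the 19S base and lid, 30 rose and 0 fell. The exceptions were Psma8, a subunit known from testis that is close to the detection limit here, and Psmd8, a lid subunit at 0.11 ± 0.038 (SE) with an adjusted p of 0.0573. The other genes not called were Psmb8, Psmb9 and Psmb11 among the inducible and thymic beta subunits, the cap chaperones Psmd9 and Psmd10, the core chaperones Psmg1 to Psmg4, the PA28 genes Psme1, Psme2 and Psme2b, and Psmc3ip.

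In the alpha ring 7 of 8 genes rose, by 0.16 to 0.28. Psma2 (ENSMUSG00000015671, chromosome 13, 14613240 to 14674236, plus strand), an alpha ring subunit, had 4569, 4752 and 4560 normalized counts in KO hippocampus, against 3730, 3851 and 3840 in WT hippocampus. The KO and WT libraries did not overlap, and the log2 fold change was 0.28 ± 0.039 (SE) with an adjusted p of 0.00177. Psma5 rose by 0.28 and Psma6 by 0.23. The value of Psma5 is uncertain, as 49.1% of the 50-base stretches of its transcripts also occur in other gene models. Psma8 had 22.5, 0 and 14.5 normalized counts in KO hippocampus, against 16.3, 0 and 10.6 in WT hippocampus. Its 0 in KO library 2 allows up to 2.71 and its 0 in WT library 2 up to 3.21 normalized counts, so that a difference was not detectable at this depth.

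In the constitutive beta ring all 7 genes rose, by 0.17 to 0.30. Psmb7 (ENSMUSG00000026750, chromosome 2, 38588036 to 38644087, minus strand) encodes the subunit with trypsin-like activity. It had 5627, 5824 and 5690 normalized counts in KO hippocampus, against 4675, 4726 and 4562 in WT hippocampus. The groups did not overlap. Its rise of 0.30 ± 0.037 had the smallest adjusted p of the 50 genes, 0.00114. Its exons share 405 bases with Nek6 on the opposite strand, so its value is uncertain if reads were counted without strand. The other catalytic subunits, Psmb5 for the chymotrypsin-like and Psmb6 for the caspase-like activity, rose by 0.18 ± 0.040 and 0.17 ± 0.038. Psmb5 is uncertain, as 54.1% of its 50-base stretches occur in other gene models, mostly in Gm3375. Exons of 15 of the 50 genes share bases with another gene, on the same strand in 4 (Psmb5, Psmd1, Psme2b and Psmg3). The largest overlap is that of Psmd9, 1849 bases (25.5% of its exon) with Gm26745 on the opposite strand. Psmd9 is therefore uncertain if reads were counted without strand.

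RefSeq promoter windows on GRCm38.p6, from 250 bases before to 50 bases after the annotated start, were matched by symbol for 42 of the 50 genes, in 45 windows. The core of the antioxidant response element, TGACNNNGC, which Nfe2l1 and Nfe2l2 are known to bind, was searched for on both strands and lay in 6 of the 45 windows (13.3%), beside 12.4% of all 32851 windows. The 6 genes were Psmb5, Psmb6, Psmc6, Psmd12, Psmd9 and Psme4, of which 4 rose, 1 fell and Psmd9 was not called. The CCAAT box, letters CCAAT, was present in 33.3% of the 45 windows and in 37.4% of all windows. Psmb5 and Psmb6 are shown as catalytic subunits that rose and Psme4 as the gene that fell, each with the 9 matched bases in capitals and written 5′ to 3′ on the strand of the gene. The windows are chr14:54617946-54618245 (minus strand) for Psmb5, chr11:70525107-70525406 (plus strand) for Psmb6 and chr11:30771525-30771824 (plus strand) for Psme4.
Psmb5: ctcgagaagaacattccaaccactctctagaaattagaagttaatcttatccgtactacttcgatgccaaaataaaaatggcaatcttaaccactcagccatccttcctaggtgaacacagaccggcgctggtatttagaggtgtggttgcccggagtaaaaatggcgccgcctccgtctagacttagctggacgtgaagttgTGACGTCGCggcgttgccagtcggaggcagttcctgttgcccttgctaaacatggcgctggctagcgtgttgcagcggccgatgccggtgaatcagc
Psmb6: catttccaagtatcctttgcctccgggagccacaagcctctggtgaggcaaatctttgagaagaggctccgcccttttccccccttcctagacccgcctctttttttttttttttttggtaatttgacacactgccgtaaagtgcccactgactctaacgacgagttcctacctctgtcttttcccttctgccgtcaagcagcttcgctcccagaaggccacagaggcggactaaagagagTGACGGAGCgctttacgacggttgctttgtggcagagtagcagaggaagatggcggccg
Psme4: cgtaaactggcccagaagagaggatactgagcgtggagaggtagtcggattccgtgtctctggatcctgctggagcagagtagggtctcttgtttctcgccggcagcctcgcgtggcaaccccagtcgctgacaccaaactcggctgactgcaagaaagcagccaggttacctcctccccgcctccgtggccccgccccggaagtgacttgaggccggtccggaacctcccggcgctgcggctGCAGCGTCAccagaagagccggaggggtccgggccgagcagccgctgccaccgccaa
The match began 47 bases before the RefSeq start in Psmb5, 9 bases before it in Psmb6 and 7 bases before it in Psme4, where it read on the opposite strand.

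In the 19S base all 6 ATPase genes rose, by 0.13 to 0.24, as did all 3 other base genes. The ATPases form the ring that unfolds the substrate. Psmc2 (ENSMUSG00000028932, chromosome 5, 21785283 to 21803787, plus strand) had 5515, 5686 and 5822 normalized counts in KO hippocampus, against 4771, 4916 and 4728 in WT hippocampus. These groups did not overlap, with a log2 fold change of 0.24 ± 0.039 and an adjusted p of 0.00397. Psmc3 rose by 0.22 and Psmc5 by 0.13, the smallest rise called. Psmd2 (ENSMUSG00000006998, chromosome 16, 20651652 to 20663414, plus strand), a scaffold of the base that docks ubiquitin shuttle factors, had 15404, 15862 and 15200 normalized counts in KO hippocampus, against 12832, 13632 and 12932 in WT hippocampus. Every KO library exceeded every WT library, and the rise was 0.24 ± 0.040 with an adjusted p of 0.00458. Psmd2 is uncertain, as 17.8% of its 50-base stretches occur in other gene models, mostly in Gm5422. The other scaffold Psmd1 rose by 0.23, and the ubiquitin receptor Psmd4 by 0.19.

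In the 19S lid 7 of 8 genes rose, by 0.17 to 0.27. Psmd11 (ENSMUSG00000017428, chromosome 11, 80428615 to 80473248, plus strand), a structural lid subunit whose level is known to limit proteasome assembly in human stem cells, had 5804, 6219 and 6047 normalized counts in KO hippocampus, against 4937, 5116 and 4918 in WT hippocampus. The groups were separate, and the rise was 0.27 ± 0.041 with an adjusted p of 0.00293. Psmd3 (ENSMUSG00000017221, chromosome 11, 98682554 to 98695979, plus strand), another structural lid subunit, had 9785, 10500 and 9849 normalized counts in KO hippocampus, against 8276, 8516 and 8518 in WT hippocampus. KO library 2 was the highest, and the rise was 0.25 ± 0.041 with an adjusted p of 0.00405. Psmd14, the enzyme that cuts ubiquitin off the substrate, rose by 0.26, and Psmd12 by 0.25.

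**Figure D2:**
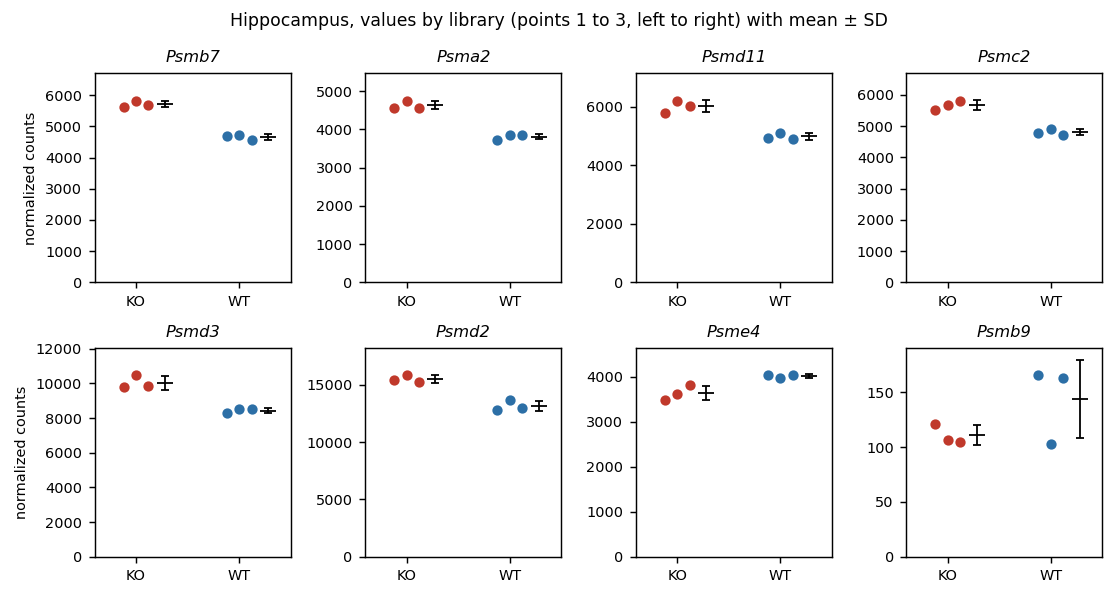
Normalized counts in each hippocampus library, KO left of WT, with the mean ± SD (n = 3), for the 6 proteasome genes with the smallest p and for Psme4 and Psmb9; axes start at 0. In the first 6 genes every KO point lies above every WT point, in Psme4 every KO point lies below, and in Psmb9 WT library 2 lies with the KO libraries.

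The genes outside the constitutive particle did not move as a block. Of the 3 chaperones that assemble the cap, Psmd5 rose by 0.17, while Psmd9 and Psmd10 measured 0.089 and 0.087. None of the 4 chaperones that assemble the core passed the test, and their values lay between -0.20 for Psmg4 and 0.065 for Psmg2. Psmg4 had 271, 262 and 324 normalized counts in KO hippocampus, against 325, 331 and 327 in WT hippocampus, without overlap but not called (adjusted p = 0.189). Among activators and inhibitors, Psme3, which encodes the nuclear PA28 gamma, rose by 0.26, and Psmf1, an inhibitor of the core, rose by 0.23. Whether these genes differ from the constitutive ones in their response was not tested.

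Psme4 (ENSMUSG00000040850, chromosome 11, 30771726 to 30880361, plus strand) encodes PA200, an activator known for histone degradation. It had 3490, 3620 and 3804 normalized counts in KO hippocampus, against 4038, 3962 and 4027 in WT hippocampus. The groups did not overlap, and it fell by 0.14 ± 0.044 with an adjusted p of 0.0466. With 8382 bases of merged exon it is the longest of the 50 genes. Protein-coding genes with 8 to 12 kb of exon had a median of -0.16 in hippocampus, and with the trend along exonic length removed Psme4 measured -0.023 (adjusted p = 0.745).

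The inducible subunits of the immunoproteasome gave differing values. Psmb10 had 1262, 1344 and 1278 normalized counts in KO hippocampus, against 1155, 1113 and 1100 in WT hippocampus, and rose by 0.21 ± 0.052 (adjusted p = 0.0221). Psmb8 had 267, 253 and 214 normalized counts in KO hippocampus, against 278, 215 and 221 in WT hippocampus, with overlapping groups and an adjusted p of 0.851. Psmb9 had 121, 106 and 104 normalized counts in KO hippocampus, against 166, 103 and 163 in WT hippocampus. WT library 2 lay with the KO libraries, and the value of -0.35 ± 0.21 was not called (adjusted p = 0.251). Without WT library 2 it was called, at -0.57 (adjusted p = 0.0227), and without WT library 1 it measured -0.23, not called. Psmb9 shares 212 exonic bases with Tap1 on the opposite strand, and Psmb8 shares 498 with the antisense model Gm20496, so both are uncertain if reads were counted without strand.

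The genes for the other PA28 subunits, which interferon induces together with the immunoproteasome, were not called. Psme1 had 1815, 1982 and 1828 normalized counts in KO hippocampus, against 2018, 1718 and 1830 in WT hippocampus. Psme2 had 837, 820 and 823 normalized counts in KO hippocampus, against 992, 887 and 815 in WT hippocampus. Both overlapped between the groups, with log2 fold changes of 0.017 and -0.11. Psme2 and Psme2b are uncertain, since 28.3% of the 50-base stretches of Psme2 occur in Psme2b and 68.7% of those of Psme2b occur in Psme2. In a list of 18 interferon and antigen presentation genes 1 rose in hippocampus (Ifit3, by 0.42) and 3 fell (Irf9, Isg15 and Nlrc5), with a median of -0.10. Of all genes tested 14.1% rose and 15.1% fell. The list summed to between 21520 and 22297 normalized counts in KO hippocampus, against 25905, 20016 and 22882 in WT hippocampus. WT library 2 thus lay below the KO libraries, and WT libraries 1 and 3 lay above them.

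WT hippocampus libraries 1 and 3, in which Psmb9 was high, were also high in choroid plexus markers. The 6 markers summed to 18124, 9117 and 13166 normalized counts in KO hippocampus, against 347481, 12454 and 180156 in WT hippocampus, and none of the 6 was at 0 in any library. With WT library 2 as the only WT library, 12 of 49 proteasome genes rose, all of them among the 34, where 6.03% of all genes tested rose, and the median was 0.17. The lone library is taken to vary as the KO libraries do. Against that library Psmb9 measured 0.10 (adjusted p = 0.781).

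Markers of microglia also moved in hippocampus. Of the 10 markers 9 rose and 0 fell, and they summed to between 35447 and 37046 normalized counts in KO hippocampus, against 24604 to 29423 in WT hippocampus. Of 6 markers each, 4 of astrocytes, 4 of oligodendrocytes, 4 of inhibitory neurons and 3 of excitatory neurons rose, and none fell. Markers of the hippocampal fields went both ways, with 1 of 6 that rose and 2 that fell, and they summed to between 106229 and 108792 normalized counts in KO hippocampus, against 112441 to 130648 in WT hippocampus. Of 7 striatal neuron markers 1 rose and 1 fell, and no marker of oligodendrocyte precursors, endothelium, choroid plexus or meningeal fibroblasts was called by limma in hippocampus. Endothelial markers nevertheless summed to 28274, 11730 and 20180 normalized counts in WT hippocampus, against 14042 to 14085 in KO hippocampus. They were thus high in the same WT libraries 1 and 3. Of all genes tested in hippocampus 14.1% rose and 15.1% fell. The part of these cell types in the rise of the proteasome genes was not tested. In bulk tissue, fewer cells of a type and less RNA per cell cannot be told apart.

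Exonic length went along with the fold change in hippocampus across all genes, so the proteasome genes were set beside genes of like length. Their exonic lengths ran from 555 to 8382 bases, with a median of 2804. Up to 2 kb of exon 9 of 16 rose, beside 13.4% of protein-coding genes of that length. At 2 to 4 kb 17 of 23 rose, beside 23.6%, and over 4 kb 8 of 11 rose, beside 14.9%. The class medians of the proteasome genes were 0.16, 0.18 and 0.23, beside 0.061, 0.096 and -0.023 for protein-coding genes of the same lengths. With the trend along length removed from each library, 14 genes rose and 0 fell, beside 11.5% of all genes tested that rose, and the median was 0.095. These 14 were all among the 34: Psma2, Psma5, Psma6, Psmb5, Psmb7, Psmc2, Psmc3, Psmd1, Psmd2, Psmd3, Psmd5, Psmd11, Psme3 and Psmf1.

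**Figure D3:**
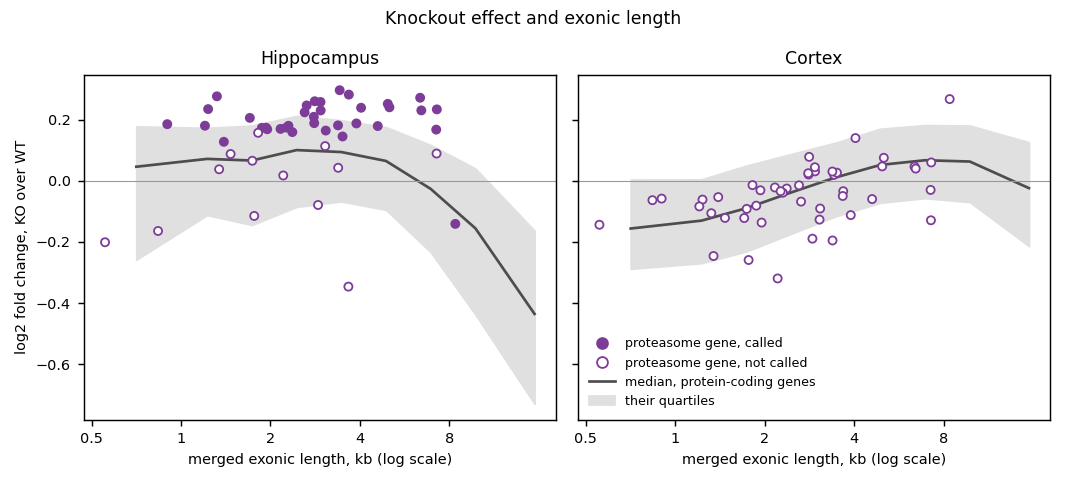
Log2 fold change of KO over WT against merged exonic length (log scale, kb) for the proteasome genes (points, filled where called) in hippocampus (left) and cortex (right), over the median and quartiles of protein-coding genes in length classes; Psma8 and Psmb11 are not drawn. In hippocampus most filled points lie above the line of medians at every length, and in cortex points lie on both sides of the line.

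The hippocampus count also depended on single libraries. It was 16 without WT library 3 and 19 without KO library 2, where 5.95% and 6.53% of all genes tested rose, and every gene called in these fits was among the 34. The medians of the 50 genes were 0.18 and 0.17 in these fits. Psma2, Psmb7, Psmc2, Psmd1, Psmd2, Psmd3, Psmd11, Psme3 and Psmf1 were called in each of the 18 alternatives run for them, and Psme4 in 8 of 18.

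In cortex none of the 50 genes was called by limma, where 1.94% of 21945 genes were, and the median was -0.037, beside -0.012 over all genes tested. At an unadjusted p below 0.05 there were 3, namely Psme4, Psmd2 and Psme1, where 18.4% of all genes tested passed. On recovered reads edgeR called 0, where it called 2.03% of all genes tested, and DESeq2 called 1, Psme4, where it called 7.33%. Summed over the 50 genes, the normalized counts were 185239, 184872 and 184610 in KO cortex, against 172779, 213308 and 174970 in WT cortex. WT library 2 was the highest of the 6 in 42 of the 50 genes, as in 30.4% of all genes tested, and its sum exceeded those of the other 5 libraries.

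**Figure D4:**
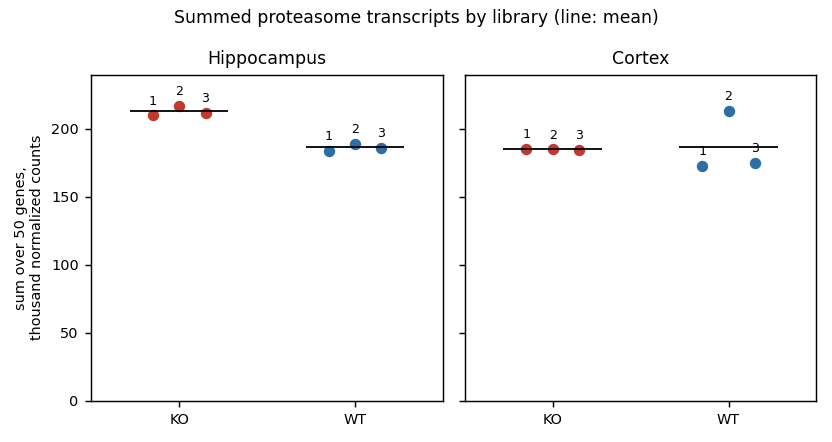
Normalized counts summed over the 50 proteasome genes in each library, KO left of WT, with the mean as a line and the library number above each point, in hippocampus (left) and cortex (right). The 3 KO hippocampus libraries lie above the 3 WT hippocampus libraries, and in cortex WT library 2 lies above the other 5.

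WT library 2 was singled out by its high values in these same genes. Leaving it out moves most cortex values toward higher levels in KO by that choice itself. The fit without WT library 2 is therefore no evidence of a rise in cortex. In that fit 8 of 49 genes rose and 0 fell, beside 11.0% of all genes tested that rose, the median was 0.072, and the ratio of the summed counts was 1.06, beside 0.989 with all libraries. The 8 were Psma1, Psmb3, Psmb7, Psmc2, Psmd1, Psmd2, Psmd14 and Psme4, with values between 0.12 for Psmd1 and 0.21 for Psme4. Of these, 7 are also among the genes that rose in hippocampus, but 34 of all 50 rose there, and the overlap was not tested. The share called, 8 of 49, was close to the 14.2% of protein-coding genes that rose in the same fit. In 27 of the genes every KO library exceeded both WT libraries 1 and 3, as in 25.0% of all genes tested.

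In cortex the KO and WT libraries did not overlap in 6 of the 50 genes, where they did not overlap in 28.3% of all genes tested. In 4 of the genes every KO library lay above every WT library, as in 16.0% of all genes tested. Psme4 had the smallest p in cortex. It had 4357, 4397 and 4380 normalized counts in KO cortex, against 3948, 3348 and 3645 in WT cortex. The KO libraries all lay above the WT libraries, the reverse of hippocampus, with a log2 fold change of 0.27 ± 0.073 and an adjusted p of 0.122. Psmd2 had 13752, 14340 and 13997 normalized counts in KO cortex, against 12585, 13127 and 12503 in WT cortex, again without overlap (0.14 ± 0.054, adjusted p = 0.231). Psme1 had 1343, 1282 and 1321 normalized counts in KO cortex, against 1553, 1998 and 1425 in WT cortex. Every KO library was lower than every WT library there (-0.32 ± 0.12, adjusted p = 0.237). Without WT library 2 Psme1 measured -0.18, not called (adjusted p = 0.0587), and with the length trend removed as well -0.20, which was called (adjusted p = 0.0413).

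The next smallest p-values in cortex belonged to Psmg1, Psmd9 and Psme2. Psmg1 had 438, 445 and 466 normalized counts in KO cortex, against 454, 679 and 493 in WT cortex. Psmd9 had 1632, 1566 and 1579 normalized counts in KO cortex, against 1645, 1932 and 1661 in WT cortex. Psme2 had 690, 748 and 694 normalized counts in KO cortex, against 747, 1144 and 719 in WT cortex. Of these, only Psmd9 had separate groups, and WT library 2 was the highest in each. Psmd9 is uncertain because of its overlap with Gm26745.

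The immunoproteasome genes of cortex overlapped between the groups. Psmb8 had 147, 128 and 209 normalized counts in KO cortex, against 161, 202 and 181 in WT cortex. Psmb9 had 57.4, 54.8 and 86.7 normalized counts in KO cortex, against 55.5, 76.1 and 71.8 in WT cortex. Psmb10 had 1711, 1721 and 1810 normalized counts in KO cortex, against 1680, 2346 and 1742 in WT cortex. Their adjusted p-values were 0.646, 0.932 and 0.652, and 0 of the 18 interferon and antigen presentation genes were called there by limma, edgeR or DESeq2, with 1 at an unadjusted p below 0.05 in limma. With the length trend removed 2 of the 18 rose and 0 fell. The share of all genes called in that cortex fit is not reported here, so the count is not read as a change of the list. Without WT library 2, 3 of the 18 were called, where 21.4% of all genes tested were. Markers of striatal neurons, a type from a neighbouring region, rose in 7 of 7 in KO cortex. They summed to between 29727 and 47456 normalized counts in KO cortex, against 11816 to 12869 in WT cortex, with none at 0. Of 6 hippocampal field markers 3 fell, with sums of 40428 to 41508 normalized counts in KO cortex, against 46797 to 50370 in WT cortex. Of 6 choroid plexus markers 1 rose, with sums of 2562 to 11312 in KO cortex, against 1451 to 1744 in WT cortex. Of 5 meningeal fibroblast markers 1 fell, with sums of 1550 to 2672 in KO cortex, against 3271 to 3507 in WT cortex. Among the other lists 2 inhibitory neuron, 1 microglia and 1 endothelial marker rose and 1 astrocyte marker fell in KO cortex. The part of these cell types in the cortex values was not tested.

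The difference between the tissues in the KO effect was tested with the interaction term over the 12 libraries. It was called for 1 of the 50 genes, Psme4, where 3.02% of 21282 genes were called. The effect on Psme4 in hippocampus minus that in cortex was -0.41 ± 0.085 (adjusted p = 0.0301), with every KO library below WT in hippocampus and above it in cortex. The call was lost in 12 of 23 alternatives, among them the fit with the length trend removed, where the difference was -0.22 (adjusted p = 0.0718). For the lid genes Psmd12 and Psmd3 the differences were 0.31 ± 0.089 (adjusted p = 0.0771) and 0.20 ± 0.061 (adjusted p = 0.0907). Psmd12 had 3803, 4238 and 4102 normalized counts in KO hippocampus, against 3395, 3439 and 3394 in WT hippocampus. In cortex it had 3512, 3689 and 3655 in KO, against 3545, 4144 and 3715 in WT. Psmd3 had 8696, 8770 and 8603 normalized counts in KO cortex, against 8226, 8567 and 8446 in WT cortex. Without cortex WT library 2 Psme4, Psmd12 and Psmd3 were called, at -0.35, 0.25 and 0.19, where 9.24% of all genes tested were. The median of the difference over the 50 genes was 0.20, beside 0.014 over all genes tested, and 0.085 without cortex WT library 2. The rise of most subunits in hippocampus was thus not shown to differ from cortex.

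Levels were compared between genes per kb of merged exon, within hippocampus. All annotated exons count toward that length, whether or not they are expressed here, so the ranks depend on this divisor. Psmd11 has 6383 bases of merged exon and Psmb5 has 899. Psmc5, an ATPase of the base, was the highest at 6010 ± 147 normalized counts per kb in KO and 5502 ± 78.2 in WT (SD, n = 3 each). Psmb5 followed at 5984 ± 65.4 in KO and 5266 ± 175 in WT, within the spread of Psmc5 in KO. Apart from Psma8, the constitutive ring, base and lid genes ran from 944 to 6010 normalized counts per kb in KO and from 782 to 5502 in WT, with Psmd11 the lowest. The inducible subunits were lower. Psmb10 reached 759 normalized counts per kb in KO and 659 in WT, Psmb8 72.3 and 70.4, Psmb9 30.2 and 39.3, and the thymic subunit Psmb11 2.90 and 3.71. Core chaperones lay between 178 and 519 normalized counts per kb in KO and between 188 and 590 in WT. Psme3 stood highest among the activators, at 2906 in KO and 2433 in WT.

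In cortex Psmc5 was again the highest in both genotypes, with 8919, 9032 and 8892 normalized counts in KO cortex, against 8530, 10802 and 8688 in WT cortex, or 6419 per kb in KO and 6700 in WT. Psmb11 was the lowest in both genotypes of cortex and in KO hippocampus, and Psma8 in WT hippocampus. Psmb11 had 18.8, 16.6 and 27.8 normalized counts in KO cortex, against 12.9, 16.0 and 16.3 in WT cortex. In hippocampus Psmb11 had 14.6, 13.5 and 13.5 in KO, against 20.3, 19.3 and 13.8 in WT. Neither was called, and with few reads per library only a large difference would be detectable.

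**Figure D5:**
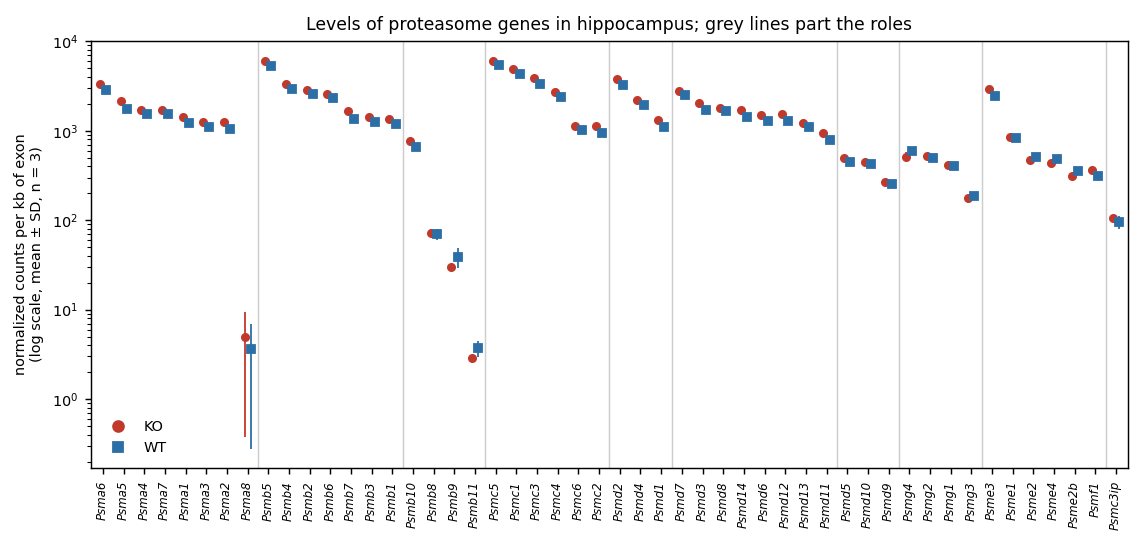
Normalized counts per kb of merged exon in hippocampus (mean ± SD, n = 3, log scale) for each proteasome gene, KO (circles) left of WT (squares), with genes ordered by level within each role. Constitutive subunits other than Psma8 lie between 944 and 6010 in KO and between 782 and 5502 in WT, and Psma8 and Psmb11 are the lowest.

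Other genes of the ubiquitin-proteasome system, 35 found and tested, also moved in hippocampus, where 14 rose and 3 fell with a median of 0.15, beside 14.1% of all genes tested that rose and 15.1% that fell. Adrm1, a ubiquitin receptor of the cap without the Psm prefix, had 4733, 5127 and 4615 normalized counts in KO hippocampus, against 3847, 3995 and 3896 in WT hippocampus, and rose by 0.30 (adjusted p = 0.00387). The shuttle and stress factors Ubqln2, Zfand5, Zfand2a, Rad23b and Ubqln1 rose by 0.36, 0.31, 0.28, 0.27 and 0.23. The ubiquitin-activating enzyme Uba1 rose by 0.27 and the unfoldase Vcp by 0.24, with its cofactor Nploc4 at 0.24. The deubiquitinase Uchl5 (0.29), the chaperone Bag6 (0.21) and the ubiquitin ligase Stub1 (0.16) rose as well. With the length trend removed 16 rose and 3 fell, where 11.5% of all genes tested rose.

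The 3 of 35 that fell are a smaller share than among all genes tested, and each fell by more than Psme4, the proteasome gene that fell. Ddi2, the protease that activates Nfe2l1, had 4826, 4862 and 4789 normalized counts in KO hippocampus, against 7338, 7927 and 7475 in WT hippocampus, and fell by 0.65 (adjusted p = 5.85e-05). Ecpas, an adaptor of the proteasome, had 5741, 5674 and 5923 in KO hippocampus, against 7818, 8252 and 8248 in WT hippocampus, and fell by 0.49. Uba6, the alternative ubiquitin-activating enzyme, had 805, 806 and 932 in KO hippocampus, against 1207, 1210 and 1226 in WT hippocampus, and fell by 0.52. With the length trend removed these measured -0.47, -0.21 and -0.41.

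Nfe2l1 itself had 25390, 24869 and 24424 normalized counts in KO hippocampus, against 23048, 23134 and 23259 in WT hippocampus, a difference of 0.10 ± 0.036 that missed the threshold (adjusted p = 0.0629). Nfe2l1 had 29508, 29800 and 30221 normalized counts in KO cortex, against 26198, 22639 and 25802 in WT cortex (0.27 ± 0.071, adjusted p = 0.117). In both tissues every KO library exceeded every WT library, as in 24.3% of all genes tested in hippocampus and 16.0% in cortex. Nfe2l2, a related factor, measured 0.050 in hippocampus (adjusted p = 0.693) and 0.22 in cortex (adjusted p = 0.210). In cortex 0 of the 35 genes were called by limma, 0 by edgeR and 3 by DESeq2, with 13 at an unadjusted p below 0.05 in limma, where 18.4% of all genes tested passed. This list summed to 389825 normalized counts in cortex WT library 2, against 357338 and 362493 in WT libraries 1 and 3. The KO cortex sums were 381620 to 389308. Leaving WT library 2 out thus moves this list toward higher levels in KO by that choice itself. In that fit 21 of the 35 were called, where 21.4% of all genes tested were, which is no evidence of a change in cortex. With all libraries the gene of that list with the smallest p was Zfand5 (0.28, adjusted p = 0.0518).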

How the data were processed

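Proteasome genes were examined in 12 RNA-seq libraries, 3 for each genotype in hippocampus and in cortex. The authors deposited 1 table per tissue whose values are a signal, named normalized counts per the file headers. Per the submitters' processing notes, as passed on without role or order, STAR, HTSeq and DESeq2 (versions not given in the sources used here) and the build GRCm38 were used. In each library all values were whole multiples of 1 step (tolerance 0.001), as read counts divided by 1 size factor would be, and the recovered reads sum to between 68424934 and 86639113 per library. For cortex WT libraries 1 and 2 the steps, 0.991 and 1.00, are so near 1 that this reading could not be checked there. A listed 0 is compatible with 3 reads at most, by counting error alone. Since each tissue has its own scaling, no level is set against one of the other tissue. Symbols, exonic lengths (all exons merged) and overlaps come from the GENCODE annotation of GRCm38, which matched 55227 of 55487 rows.

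Within each tissue KO was set against WT by limma 3.58.1 (R 4.3.3), its variance prior following expression, on log2(normalized count + 1). Genes needed a mean of at least 10 over the 6 libraries, and Benjamini-Hochberg adjustment ran over all of them. Fold changes are KO over WT ± SE on that scale and are too small for low genes. "Rose" and "fell" are used of genes with an adjusted p below 0.05. The difference between tissues was the interaction term of 1 fit over 12 libraries taken as independent. The members, the lists and the tests were chosen with earlier results of these data known, so counts and medians of a list are descriptions and no list was tested. Values in every library are given for Tert, for the 6 members with the smallest p in each tissue, for the 3 with the smallest p for the difference, for Psmb8, Psmb9, Psmb10, Psme1 and Psme2, and for the highest and lowest member per kb. Psmg4 and, in some places, genes of the other lists were added after their values were seen. Near-identical copies were searched as 50-base stretches that annotated transcripts of other genes share. The labels say nothing of strandedness or of reads that fit several genes.

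Alternatives were another pseudocount (0.5, 5), no filter or a mean of at least 50, quantile normalization, no trend of the prior variance, edgeR 4.0.16 and DESeq2 1.42.0 on recovered reads, removal of the trend along exonic length per library, a block on the replicate number, and each library left out. The fits with WT hippocampus library 2 alone, and without cortex WT library 2 after removal of the length trend, were added after seeing the data. The limma and edgeR fits within each tissue and the removal of the length trend were run on simulated data with libraries drawn independently. The interaction fit and the DESeq2 fits were not simulated. Some genes of the list of other ubiquitin-proteasome genes are counted but not reported singly here.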

Additional observations from a re-analysis of the deposited data

Results flagged for a closer look

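Psme4, the gene of the activator PA200, stood out because its KO effect differed between the tissues in the test of the difference itself. The effect in hippocampus minus that in cortex was -0.41 ± 0.085 (SE) on the log2 scale (limma, adjusted p = 0.0301), with 3 of 3 KO libraries below WT in hippocampus and 3 of 3 above WT in cortex. It is the longest of the 50 genes, and its difference was -0.22 with the length trend removed and -0.35 without cortex WT library 2. Protein-coding genes with 8 to 12 kb of exon had median effects of -0.16 in hippocampus and 0.063 in cortex.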

How the results depend on the processing

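The hippocampus count of 35 called members was 20 with no trend of the prior variance, 14 with the length trend removed, 12 with WT library 2 as the only WT library, and 16 to 37 with single libraries left out. Its median of 0.18 was 0.16 with edgeR and 0.095 with the length trend removed, and 0.17 to 0.19 with single libraries left out. The cortex count of 0 was 1 with DESeq2, 8 without WT library 2 after removal of the length trend, and 0 to 8 with single libraries left out. Its median of -0.037 was 0.064 without WT library 2 after removal of the length trend and -0.12 to 0.072 with single libraries left out. The count for the difference, 1, was 0 with no trend of the prior variance and 0 with the length trend removed, 5 with that trend removed and without cortex WT library 2, and 0 to 3 with single libraries left out. The share of all genes called also changed between these fits. In cortex it went from 1.94% to 21.4% without WT library 2. In hippocampus 14.1% rose in the main fit, 11.5% with the length trend removed and 5.95% without WT library 3. For the difference the share went from 3.02% to 9.24% without cortex WT library 2. The counts are therefore not a measure of the proteasome genes alone. The cause of these shifts was not tested.

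Same-numbered libraries did not deviate together, with correlations between -0.0859 and 0.0963, so the numbers were not taken to pair samples. With the replicate block 32 members were called in hippocampus, 0 in cortex and 0 for the difference, and with the block and the length trend removed 14, 0 and 0, with a hippocampus median of 0.095.

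Of 447 alternatives for 24 gene results, 389 kept direction and call, 28 lost the call, 11 gained it and 19 changed sign, and those 19 belonged to results not called. In cortex Psmb10 measured 0.022 with the length trend removed and without WT library 2, and -0.21 to 0.030 with single libraries left out. Psmb9 measured 0.071 after quantile normalization, 0.0094 with the length trend removed and without WT library 2, and -0.26 to 0.069 with single libraries left out. In hippocampus Psmb8 measured -0.050 with the length trend removed, with or without the block, and -0.025 to 0.16 with single libraries left out. Psmb9 measured 0.10 against WT library 2 alone. Psme1 measured -0.0054 with edgeR, -8.49e-06 with DESeq2, -0.070 with the length trend removed, with or without the block, and -0.037 to 0.079 with single libraries left out. DESeq2 was not run for the difference. Depth limits what can be said of Psma8 and Psmb11.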

Other observations

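Transcripts of the 50 proteasome genes made up 0.271%, 0.278% and 0.271% of the normalized counts in KO hippocampus, against 0.248%, 0.239% and 0.243% in WT hippocampus. In KO cortex they made up 0.253%, 0.251% and 0.252%, against 0.238%, 0.308% and 0.243% in WT cortex. The genes lie on 16 chromosomes, with 10 on chromosome 11, 6 on chromosome 14 and 6 on chromosome 2.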
